A study of Monodelphis domestica and Mus musculus with 2 samples.

Results

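Cadherin and protocadherin genes were examined in the primary visual cortex (V1) of 1 gray short-tailed opossum and 1 mouse, measured by Stereo-seq, which reads RNA in place on a tissue section and counts unique molecular identifiers (UMIs) in segmented cells. The genes were those whose symbol is Cdh followed by a number or begins with Pcdh, provided that more than 8 cells of the section held a UMI. In the opossum 33 of 26163 genes found in more than 8 cells met this rule, and in the mouse 92 of 39576 did. The opossum was a male of 6 months from a laboratory colony, and the mouse a wild-type C57BL/6J male of postnatal day 40. The labels name no transgene or treatment for either animal, and each species is 1 sample from 1 animal.

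Classical cadherins are calcium-dependent adhesion molecules that span the membrane, bind partners on neighboring cells and connect through catenins to actin. Type I members bind strongly and are broadly expressed, whereas type II members occur in combinations that differ between groups of neurons. Protocadherins carry related extracellular repeats but a different cytoplasmic part. The delta protocadherins are single genes, several of which recruit the WAVE actin-regulating complex, and the clustered alpha, beta and gamma protocadherins are chosen differently in individual neurons and serve self-recognition.

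The V1 cells came from 3 hand-drawn regions of the opossum (4806 cells, 6933475 UMIs) and 4 of the mouse (9127 cells, 12522687 UMIs), with medians of 1326 and 1305 UMIs per cell. No cell barcode was shared by the sections. Regions of an animal are not replicates, so no test between species, regions or cell types was possible. Levels are UMIs per 10000 UMIs of the same cells, given with exact 95% Poisson intervals, and ranges over regions are given as a description of spread. The intervals cover counting error only. Because a level is a share of all UMIs, fewer cells of a type and less RNA of a gene per cell cannot be told apart. The annotation, RNA integrity of the tissue block, age and animal all differed between the species, and their part in any species difference cannot be told apart.

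Cell types are the deposited subclass labels, which the authors transferred from single-nucleus RNA atlases of each species by nearest neighbors. The glutamatergic labels are IT_A, IT_B and IT_C (intratelencephalic) in the opossum, L2/3, L4, L5IT and L6IT in the mouse, and L5PT (pyramidal tract), L5NP (near-projecting) and L6CT (corticothalamic) in both, with L6b in the mouse. The transfer used expression in these same cells, so a level in a subclass against other cells is a description and not a test. The labels had uneven support. Of the layer 4 markers, RORB was at least 1.5-fold higher in IT_B, and RSPO1 had 0 UMIs there and 51 in all V1 cells. Their sum reached 7.50 in IT_B against 0.69 in other cells. In the opossum L5NP cells, TSHZ2 and LYPD1, the L5NP markers of the list that have a feature there, had 0 UMIs. They had only 78 and 20 in all V1 cells. In the mouse, L5NP cells held 99 of 511 Tshz2 UMIs, at 36.7-fold. TSHZ2 thus gave the opossum L5NP label no support, and LYPD1 was too sparse to add any. A separately transferred class label was glutamatergic in 83 of 171 opossum Sst cells and in 142 of 354 opossum Pvalb cells, and also in 50 of 65 Endo, 70 of 100 OPC, 331 of 565 OD, 15 of 32 Micro and 19 of 38 Vip cells of the opossum. It was GABAergic in 144 of 169 mouse Sst cells and 150 of 174 mouse Pvalb cells. The summed glutamatergic markers stood at 5.11 in opossum Sst cells and 6.25 in the other labelled cells, with 24.9 and 28.0 in the mouse. The opossum sum lacks Slc17a7 and Camk2a, which have no feature there, so the sums compare within a species only. The part of neighboring RNA in the values below was not tested.

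Levels were summed over each family within a species. In the opossum the 20 cadherins summed to 13.4 UMIs per 10000 (interval 13.1 to 13.7) and the 13 protocadherins to 10.4 (10.1 to 10.6). In the mouse the 23 cadherins summed to 9.55 (9.38 to 9.72) and the 69 protocadherins to 23.7 (23.4 to 23.9). The cadherin sum was between 11.4 and 14.1 in the 3 opossum regions and between 8.26 and 10.4 in the 4 mouse regions, which are not replicates. Levels of different genes are shares of molecules counted at transcript ends and are not corrected for gene length. Across the 29 mouse genes with at least 100 UMIs, level and gene length had a Spearman rho of 0.63, as a description, and whether intronic reads were counted is not given in the sources used here. No opossum feature analysed here carries the symbol Pcdh9, which alone held 11996 of the 41602 mouse UMIs of these genes, and the protocadherin sums are therefore not sums over the same genes. For the same reason Cdh2 is given for the mouse alone, and the cadherin sums are not over the same genes either.

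Of the members, 23 opossum and 29 mouse genes had at least 100 UMIs in V1 cells, the minimum for the rules below. The other 10 opossum members had 0 to 48 UMIs and the other 63 mouse members 0 to 98. CDH15, a cadherin of muscle, had 0 of 6933475 opossum UMIs, which allows a level of up to 0.00433, and the clustered alpha gene Pcdha2, named here because its count is 0, had none in the mouse. A pair of rules describes where a gene lies. By the first, a gene is higher in a subclass when its level there is at least 1.5-fold that of all other labelled V1 cells with at least 20 UMIs in the subclass. By the second, a gene is shallow or deep when the mean relative depth of its UMIs, with every cell scaled to the same total, differs from that of all UMIs by at least 0.05 of the region height, to the same side in every region. Depth runs from 0 at the top of layer 2/3 to 1 at the bottom of layer 6, and which end is the top was taken from the subclass labels.

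By the first rule, 18 of the 23 opossum members were higher in at least 1 subclass, where 46.4% of all 8846 genes tested were. In the mouse 19 of 29 members were, where 33.7% of 11402 genes were. Of the 29, 13 overlap no other annotated feature on their strand, and for the others reads of overlapping features cannot be told apart. These made 33 opossum and 32 mouse pairs of a gene and a subclass. Glutamatergic subclasses held 20 of the opossum pairs and 23 of the mouse pairs, GABAergic subclasses 8 and 5, and nonneuronal subclasses 5 and 4. The same split over all genes is not given here, so these counts do not describe the family. The minimum of 20 UMIs is easier to reach in large subclasses (2328190 UMIs in opossum IT_A cells, 49354 in Vip cells). The interval of the fold lay above 1 in 31 of 33 and 31 of 32 pairs. The gene was higher in every region in 28 opossum and 20 mouse pairs. Against cells of the same depth 25 opossum and 27 mouse pairs stayed at 1.5-fold or more, and those that fell under it included CDH6 in opossum Pvalb cells (1.08-fold).

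**Figure D1:**
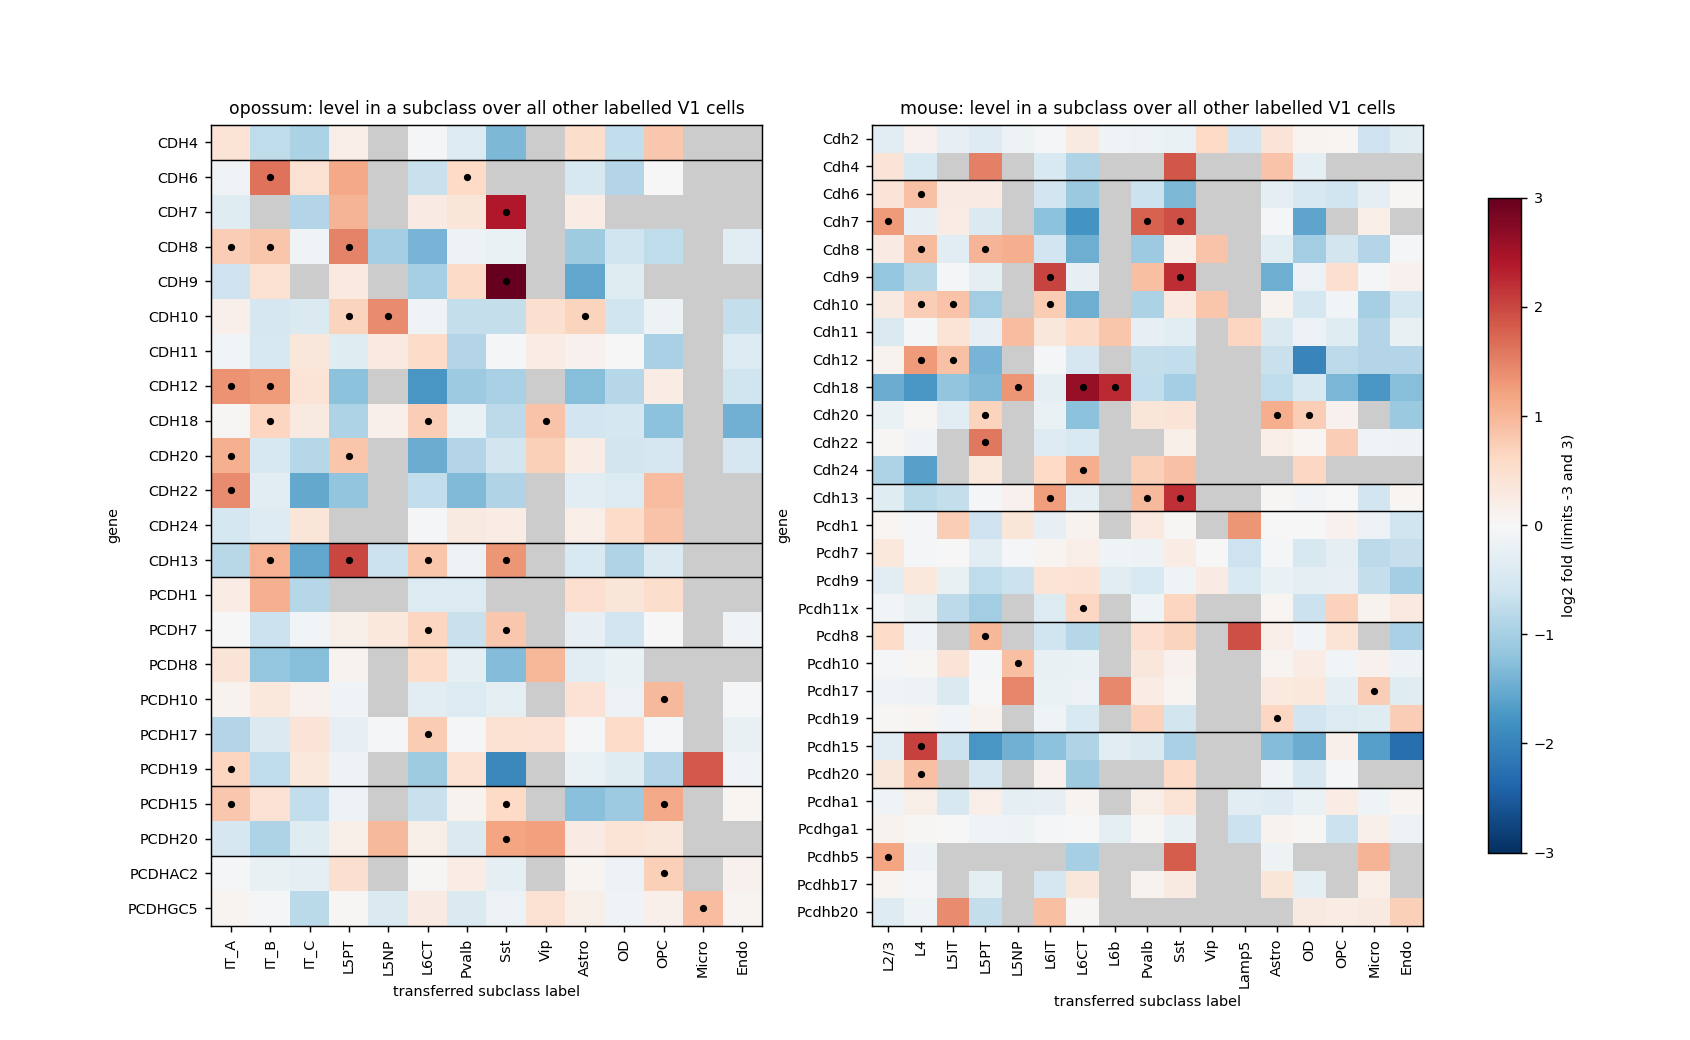
Fold of each gene with at least 100 UMIs in V1 (rows, in order of gene family with lines between families) in each subclass (columns) over all other labelled V1 cells, as log2 with colors limited to 3 in either direction. Dots mark the 33 opossum and 32 mouse pairs past the rule, and gray marks subclasses with under 5 UMIs of the gene. CDH9 and CDH7 in opossum Sst cells and Cdh18 in mouse L6CT cells are among the darkest red, at 11.9-fold, 5.28-fold and 6.08-fold.

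Of the type I cadherins, 1 opossum and 2 mouse genes had at least 100 UMIs, and the opossum features analysed here do not include CDH2. Cdh2, the N-cadherin of neural tissue, stood at 1.77 in the mouse (1.70 to 1.85), with 1.92, 1.69, 1.59 and 1.74 in the 4 regions. Its level ran from 2.31 in Astro cells to 1.17 in Micro cells among the 13 subclasses with at least 20 UMIs, and was past neither rule. Cdh4, the R-cadherin, was 0.622 in opossum V1, 0.144 in mouse V1, and past neither rule. In the mouse its level in Sst cells rested on 12 UMIs and that in L5PT cells on 19, under the minimum of the rule. Cdh1, the epithelial E-cadherin, had 4 UMIs in opossum V1 and 8 in mouse V1, and Cdh3, the P-cadherin, 15 and 4.

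Type II cadherins held most of the cadherin UMIs counted, with a summed level of 11.4 over 13 opossum genes and 6.87 over 13 mouse genes. The opossum share is one without CDH2. Each of the 11 of them with at least 100 UMIs in the opossum had at least 100 in the mouse as well.

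Cdh18 was the type II cadherin with the highest opossum level, at 2.34, and stood at 1.07 in the mouse. In mouse L6CT cells it was 3.98, 4.67, 2.64 and 2.97 in the 4 regions, against 0.73, 0.49, 0.41 and 0.63 in the other labelled cells of those regions. The fold over pooled regions was 6.08 (5.42 to 6.82). Mouse L6b cells reached 5.45 and mouse L5NP cells 2.87, on 20 and 23 UMIs and with 0 UMIs in 1 region each, whereas L4 and L2/3 cells had 0.42 and 0.47. In opossum L6CT cells CDH18 was 3.34, 4.72 and 2.66 in the 3 regions, against 2.04, 2.47 and 1.73 in other cells. The L6CT level was thus 3.63 in the opossum and 3.62 in the mouse, whereas the fold was 1.68 (1.49 to 1.89) in the opossum, where IT_A cells held 2.42 and IT_B cells 3.63. The opossum pair of CDH18 and Vip cells rested on 21 UMIs and fell to 0.80-fold against cells of the same depth.

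Cdh12 was higher in intratelencephalic subclasses of both species. In the opossum it was 2.73, 2.67 and 2.01 in IT_A cells of the 3 regions, against 1.18, 0.98 and 0.79 in other cells, a fold of 2.53 (2.24 to 2.87). IT_B cells, with 5.76, 3.01 and 2.15, were at 2.42-fold (1.90 to 3.06). In the mouse Cdh12 was 3.40, 2.68, 1.75 and 2.21 in L4 cells, against 1.20, 1.16, 0.86 and 0.96, a fold of 2.41 (2.17 to 2.67), and mouse L5IT cells had the same level of 2.58 as L4 cells on 55 UMIs. Opossum L6CT cells held 0.52, the lowest level among the 8 opossum subclasses with at least 20 UMIs.

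Cdh8 was highest in L5PT cells of both species. Opossum L5PT cells had 4.26, 3.48 and 3.69 in the 3 regions, against 1.42, 1.47 and 1.10, a fold of 2.81 (2.24 to 3.48). Mouse L5PT cells had 2.12, 2.72, 0.77 and 2.11, so region 3 lay under its other cells at 1.01, and the pooled fold was 2.04 (1.64 to 2.52). IT_B cells in the opossum (1.78-fold) and L4 cells in the mouse (1.92-fold) were past the rule as well, as was opossum IT_A at 1.68-fold. Of the layer 5 markers, 2 of the 4 found in the opossum and 3 of the 4 found in the mouse were at least 1.5-fold higher in L5PT cells.

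Cdh9 had the largest fold of the opossum pairs past the rule, in Sst interneurons, which release somatostatin. It stood at 3.38, 1.43 and 2.25 in Sst cells of the 3 regions and at 0.25, 0.19 and 0.13 in other cells, a fold of 11.9 (8.52 to 16.4) on 56 UMIs. Over the 84 opossum Sst cells whose class label is GABAergic the fold was 18.6. In mouse Sst cells Cdh9 was 1.01, 0.49, 1.57 and 0.90, against 0.23, 0.27, 0.17 and 0.22, a fold of 4.62 (lower bound 2.93) on 25 UMIs. Mouse L6IT cells were also high at 0.82, a fold of 4.05, which was 1.58 (0.90 to 2.63) against cells of the same depth.

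Cdh7 followed Sst cells in both species. In the opossum it was 1.35, 1.67 and 0.32 in Sst cells of the 3 regions, against 0.23, 0.24 and 0.19 elsewhere, a fold of 5.28 (3.39 to 7.96) on 28 UMIs. In the mouse it was 3.83-fold in Sst cells and 3.41-fold in Pvalb cells, on 21 UMIs each. L2/3 cells in the mouse were past the rule too, at 2.42-fold (1.84 to 3.15) on 86 UMIs, whereas opossum IT_A cells held 0.22, the lowest level among the 3 opossum subclasses with at least 20 UMIs.

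Cdh6 and Cdh10 were both past the rule in mouse L4 cells and had no other subclass in common. Cdh6 was 1.28, 0.78 and 1.29 in opossum IT_B cells against 0.30, 0.33 and 0.41 elsewhere (3.07-fold, 1.88 to 4.77, 22 UMIs), and 1.85-fold (1.54 to 2.20) higher in mouse L4 cells on 198 UMIs. Against cells of the same depth these folds were 1.21 and 1.40, both under the rule. Cdh10 was higher in opossum L5NP, L5PT and Astro cells and in mouse L5IT, L6IT and L4 cells. These mouse labels do not exist in the opossum, and Cdh10 was not past the rule in mouse L5NP, L5PT or Astro cells. Against cells of the same depth mouse L4 cells were at 1.05-fold (0.78 to 1.42), under the rule. Its opossum L5NP level of 3.80 rested on 26 UMIs, at 7.15, 1.45 and 2.57 in the 3 regions against 1.65, 1.43 and 0.95 elsewhere. The L5NP markers TSHZ2 and LYPD1, with 0 UMIs in these cells, gave that label no support. In opossum astrocytes it was 2.53, 2.13 and 1.73 against 1.63, 1.36 and 0.89, a fold of 1.60 (1.32 to 1.92), and the summed astrocyte markers were 2.64-fold higher in the same cells.

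Cdh20 and Cdh22 were past the rule in the upper IT_A cells of the opossum and in neither L2/3 nor L4 cells of the mouse. A difference between species was not tested. CDH22 was 0.99, 0.54 and 0.89 in IT_A cells of the 3 regions, against 0.28, 0.31 and 0.29, a fold of 2.67 (2.12 to 3.37). Mouse Cdh22 was 0.68, 0.58, 0.60 and 0.97 in L5PT cells, against 0.23, 0.24, 0.22 and 0.24, a fold of 3.02 (2.05 to 4.32) on 35 UMIs. CDH20 was 1.68, 2.21 and 1.60 in IT_A cells, against 0.96, 0.87 and 0.85 (2.09-fold, 1.82 to 2.40), and 1.79-fold in opossum L5PT cells. Against cells of the same depth its IT_A fold was 1.4997 (1.18 to 1.92), just under the rule. Mouse Cdh20 was highest in astrocytes, at 0.39, 0.77, 0.60 and 1.48 against 0.38, 0.29, 0.23 and 0.36, so that region 1 showed almost no difference, with a pooled fold of 2.14 (1.495 to 2.99) on 39 UMIs. Its mouse L5PT fold of 1.60 turned to 0.94 against cells of the same depth.

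Cdh11 and Cdh24 were past the subclass rule in no opossum subclass. Cdh11, a cadherin also known from bone and mesenchyme, was past neither rule in either species, at 1.53 in opossum V1 and 0.89 in mouse V1, with its highest level in L6CT cells of both (2.12 and 1.25). Cdh24 was 0.38 in the opossum, and in the mouse, at 0.11, it was 2.14-fold (1.43 to 3.16) higher in L6CT cells on 40 UMIs. Cdh5, the VE-cadherin of vessel walls, had 45 opossum UMIs and 77 mouse UMIs, of which the Endo cells (endothelial) held 2 and 1. Cdh19, known from cells of the glial and neural crest lineage, had 48 opossum UMIs, 16 of them in OD cells (oligodendrocytes), and 92 mouse UMIs, 18 of them in Astro cells.

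Cdh13, the T-cadherin, lacks a membrane-spanning part and is held by a lipid anchor. In opossum L5PT cells it was 5.64, 4.97 and 2.58 in the 3 regions, against 1.30, 1.03 and 1.57, a fold of 4.02 (3.29 to 4.89), which was 6.93 (4.93 to 9.74) against cells of the same depth. Mouse L5PT cells were not past the rule. Sst cells were past it in both species. In the mouse they had 3.47, 2.70, 2.44 and 2.71 against 0.74, 0.62, 0.56 and 0.54, a fold of 4.60 (3.55 to 5.88). In the opossum they had 1.69, 2.02 and 7.25 against 1.47, 1.15 and 1.31, so the fold of 2.51 rested mainly on region 3. Mouse Pvalb (1.97-fold) and L6IT cells (2.40-fold) and opossum L6CT (1.77-fold) and IT_B cells (2.05-fold) completed its pairs. In opossum IT_B cells region 1 went the other way, at 0.48 against 1.497 elsewhere, with 3.59 and 3.88 in the other regions. There the first labelling round gave 0.30-fold, on 3 UMIs.

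**Figure D2:**
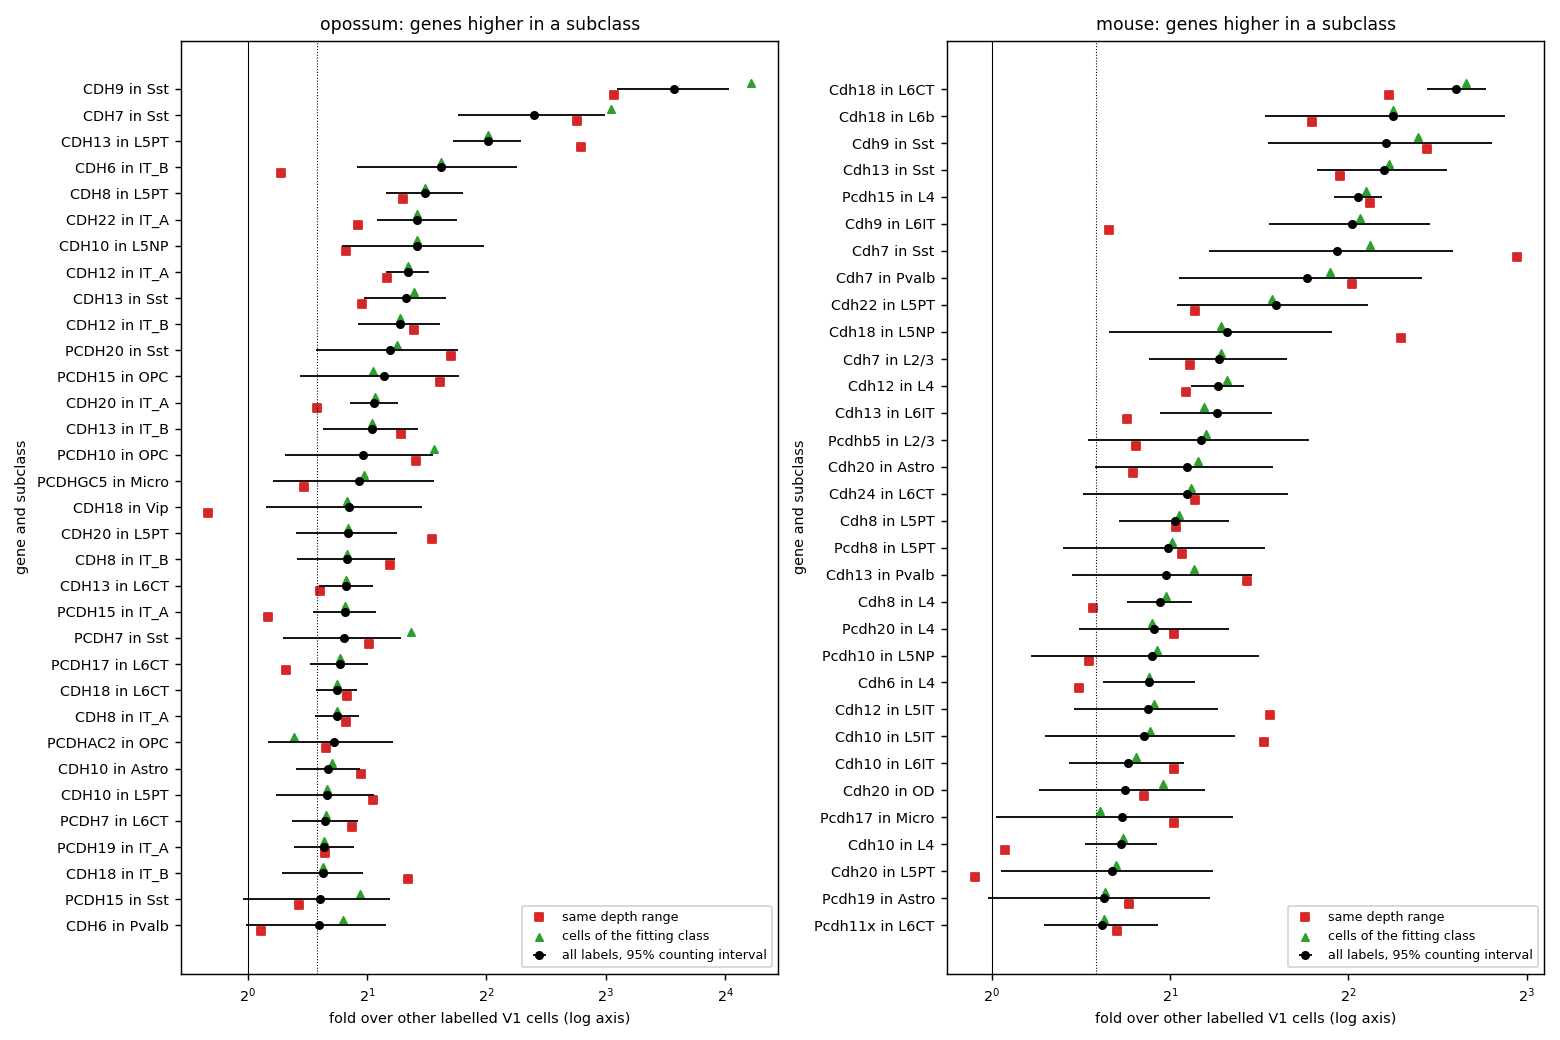
Fold of each gene and subclass pair past the rule over all other labelled V1 cells (log axis), with all cells of the label (black, bars are 95% counting intervals), within the depths between the lower and upper quartile of the subclass (red squares) and in cells whose class label fits the subclass (green triangles). CDH9 in opossum Sst cells lies at 11.9-fold and at 18.6-fold over the fitting class, Cdh18 in mouse L6CT cells at 6.08-fold, and CDH18 in opossum Vip cells and Cdh20 in mouse L5PT cells fall under 1 within the depth range.

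Delta-1 protocadherins were led in the mouse by Pcdh9, at 9.58 (9.41 to 9.75), with 10.9, 10.4, 8.35 and 7.76 in the 4 regions. A UMI of Pcdh9 was found in 49.7% of mouse V1 cells. All 17 mouse subclasses held at least 20 UMIs of it, from 13.3 in L6IT cells to 5.07 in Endo cells, and none passed the rule. Pcdh7 was 2.87 in the mouse and 0.940 in the opossum. It was past the rule in opossum L6CT (1.57-fold) and Sst cells (1.75-fold) and in no mouse subclass, where its level ran from 3.55 in L2/3 cells to 1.72 in Micro cells. Pcdh1 was 0.254 in opossum V1 and 0.492 in mouse V1, past the rule in no subclass, and Pcdh11x, an X-linked gene, was 0.393 in the mouse and 1.54-fold (1.23 to 1.91) higher in L6CT cells.

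Delta-2 protocadherins passed the rule in 3 opossum and 4 mouse genes, each in 1 subclass. PCDH17 was 1.87, 1.63 and 2.12 in opossum L6CT cells of the 3 regions, against 1.06, 1.06 and 1.21, a fold of 1.71 (1.44 to 2.01), which was 1.25 (0.93 to 1.67) against cells of the same depth. In the mouse Pcdh17 was past the rule in Micro cells alone, on 21 UMIs, with 0 UMIs in the cells of the first round. PCDH19, an X-linked gene in which human mutations cause epilepsy mostly in females, was 1.56-fold (1.31 to 1.86) higher in opossum IT_A cells, and Pcdh19 1.55-fold (0.99 to 2.33) in mouse Astro cells. Pcdh10 was past the rule in opossum OPC cells (1.96-fold, 24 UMIs), although region 2 stood at 0.41 against 1.00 elsewhere. It was also past it in mouse L5NP cells (1.86-fold, 22 UMIs), where the fold was 1.46 against cells of the same depth. Pcdh8, which is induced by neuronal activity, was past it in mouse L5PT cells (1.99-fold, 30 UMIs). Pcdh18 had 22 UMIs in opossum V1 and 37 in mouse V1.

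Pcdh15, known for the tip links of hair cells in the inner ear, was the protocadherin with the largest mouse fold. In mouse L4 cells it was 4.24, 5.07, 2.68 and 4.35 in the 4 regions, against 1.21, 0.91, 0.70 and 0.81 in other cells. The fold was 4.15 (3.78 to 4.56) on 1006 UMIs, and it was 4.36 (3.29 to 5.88) against cells of the same depth. In opossum IT_B cells, which share the layer 4 marker RORB, PCDH15 was 0.943 on 20 UMIs, at 1.34-fold and not past the rule. It was 1.75-fold higher in opossum IT_A cells, 1.13-fold within their depth range, and 2.21-fold (1.35 to 3.42) higher in OPC cells, the precursors of oligodendrocytes, on 21 UMIs of which 6 were in cells with the nonneuronal class label. Its opossum Sst fold of 1.52 had an interval from 0.98 to 2.28. Pcdh20 was 2.29-fold higher in opossum Sst cells (27 UMIs) and 1.88-fold (1.40 to 2.51) in mouse L4 cells (77 UMIs). Pcdh12, a protocadherin of vessel walls, had 13 and 2 UMIs.

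Clustered protocadherins made up 7512 of the 41602 mouse UMIs. In the mouse the alpha genes summed to 1.90 (1.82 to 1.97), the beta genes to 1.23 (1.17 to 1.30) and the gamma genes to 2.87 (2.78 to 2.97). Pcdha1 held 96.3% of the alpha UMIs and Pcdhga1 91.8% of the gamma UMIs. In the annotation, 7 of the 14 alpha genes and 21 of the 22 gamma genes end at the same base, since isoforms of a cluster share their last exons, so the split of UMIs among isoforms is uncertain and these values are read as sums. The beta genes are single exons, and Pcdhb20, with 208 UMIs, held 13.5% of their sum. In the opossum 1 feature of each cluster was present, with PCDHGC5 at 2.96 (2.83 to 3.09) and PCDHAC2 at 1.48 (1.39 to 1.57). Pcdhga1 ranged over 1.72-fold and Pcdha1 over 1.82-fold from the highest to the lowest of 13 mouse subclasses. PCDHGC5 was past the rule in opossum cells labelled Micro (microglia), on 20 UMIs, with 1.39-fold (0.60 to 2.75) against cells of the same depth. Of these 32 cells 15 had a glutamatergic class label. The microglial markers C1QA and P2RY12 had 0 UMIs in them, but only 20 and 0 in all of opossum V1. Those zeros therefore cannot speak for or against the label. The other microglial markers of the list, CX3CR1 and CSF1R, had 87 and 52 UMIs in opossum V1, under the minimum of the rules. Among subclasses with at least 20 UMIs of CX3CR1, OD cells led, at 3.06-fold on 22 UMIs. CSF1R reached that count in no subclass. The levels of both in Micro cells are not given here, so the support of the list for this label was not tested. PCDHAC2 was past the rule in OPC cells, on 33 UMIs, with 1.31-fold over the 29 OPC cells of the nonneuronal class. Pcdhb5 was past it in mouse L2/3 cells, on 34 UMIs.

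By the second rule, 2 opossum members were shallow in every region and 2 deep, where 2.77% and 2.86% of all genes tested were. In the mouse 3 of 29 were shallow and 3 deep, where 1.55% and 1.42% of genes were. Depth is given below in 10 equal bins, with bin 1 at the top, and a bin need not hold the same layer in both species.

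**Figure D3:**
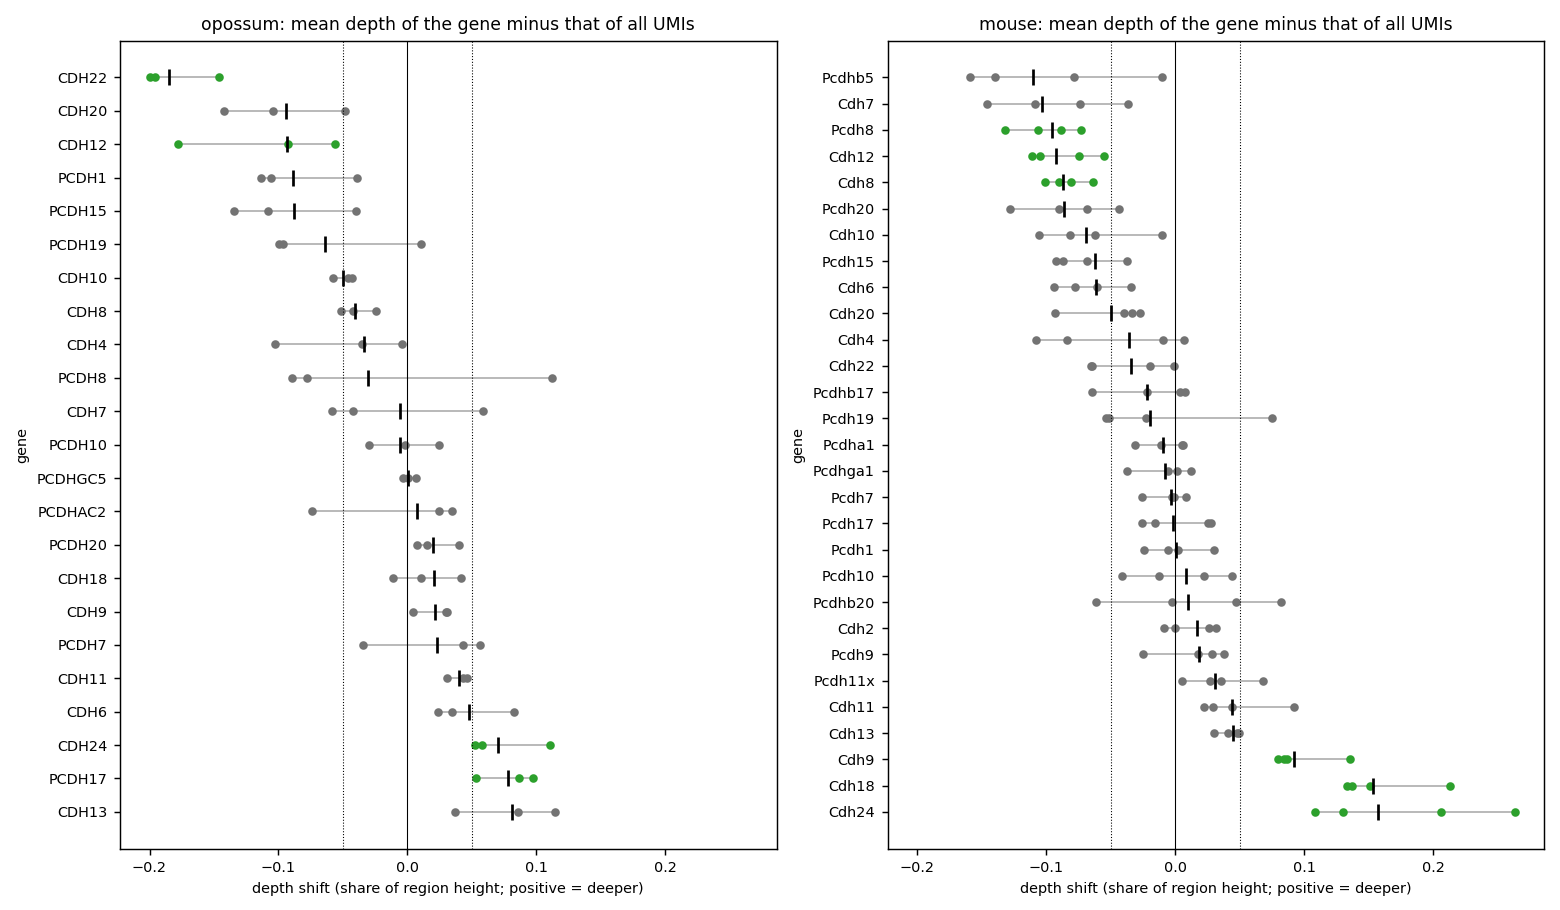
Mean relative depth of each gene's UMIs minus that of all UMIs (positive is deeper), in each V1 region (dots) and pooled (black ticks), for the 23 opossum and 29 mouse genes with at least 100 UMIs. Green dots mark the 4 opossum and 6 mouse genes past 0.05 (dotted lines) to the same side in every region, with CDH22 the shallowest in the opossum at -0.19 and Cdh24 the deepest in the mouse at 0.16.

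CDH22 was the shallowest opossum member, with shifts of -0.20, -0.15 and -0.20 in the 3 regions and -0.19 pooled. Its level fell from 1.07 in bin 1 to 0.10 in bin 7 and rose again to 0.34 in bin 10. The shift was -0.19 among glutamatergic cells alone. Mouse Cdh22 lay at -0.03, with its highest level in bin 6 (0.51). Cdh12 was shallow in both species, at -0.056, -0.093 and -0.178 in the opossum regions and -0.112, -0.075, -0.055 and -0.105 in the mouse regions. It peaked at 2.95 in opossum bin 3 and at 2.70 in mouse bin 4, and stood at 0.51 and 0.70 in bin 10.

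Mouse Cdh8 was shallow, at -0.101, -0.090, -0.081 and -0.064, with levels of 1.07 to 1.52 in bins 1 to 6 and 0.42 to 0.44 in bins 8 to 10. Opossum CDH8 leaned the same way in every region, from -0.05 to -0.02, below the size of the rule. Mouse Pcdh8 was shallow at -0.073, -0.132, -0.088 and -0.107, with 0.57 in bin 1, 0.51 in bin 6 and 0.15 in bin 10. Opossum PCDH8 had shifts of -0.078, -0.089 and 0.112, with 0.94 in bin 1 and 0.83 in bin 10.

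Cdh18 was deep in the mouse, at 0.137, 0.213, 0.151 and 0.133. Its level stayed between 0.41 and 0.70 in bins 1 to 6 and ran from 1.27 in bin 7 to 2.13 in bin 10. In the opossum it was high at both ends, with 2.53 in bin 1, 1.75 in bin 7 and 2.99 in bin 10, and its shifts were 0.011, 0.042 and -0.011. Cdh24 was deep in both species, at 0.052, 0.058 and 0.111 in the opossum regions and 0.109, 0.206, 0.263 and 0.130 in the mouse regions. Those shifts rested on 263 and 140 UMIs. Mouse Cdh9 was deep, at 0.079, 0.084, 0.136 and 0.087, with its peak in bin 8 (0.43). Opossum CDH9 peaked in bin 5 (0.80). PCDH17 was deep in the opossum, at 0.053, 0.097 and 0.086, with 0.93 in bin 1 and 1.83 in bin 10, whereas mouse Pcdh17 had shifts from -0.03 to 0.03.

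**Figure D4:**
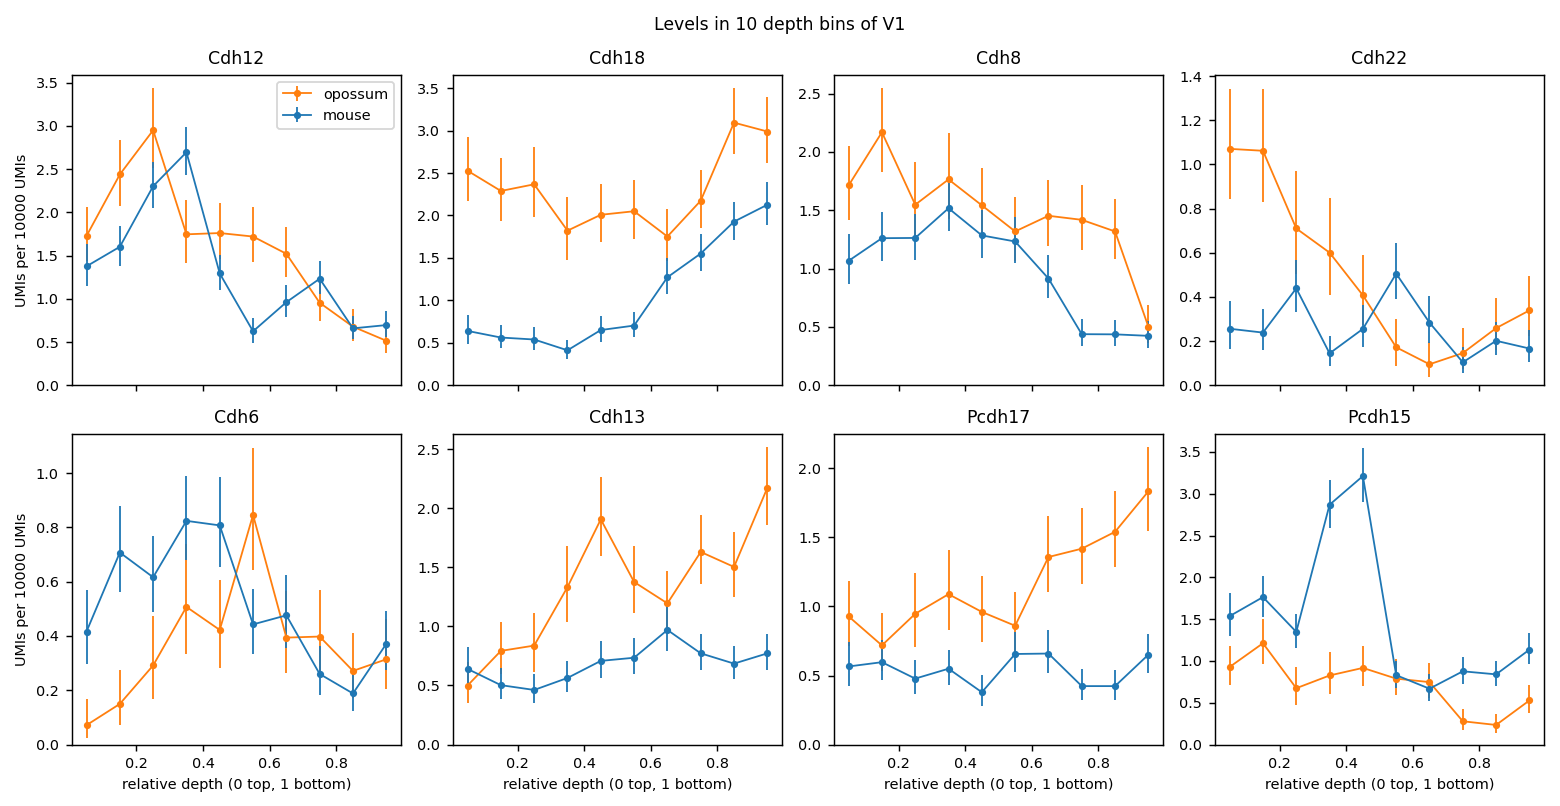
Level of 8 genes in 10 equal depth bins of V1 (relative depth, 0 at the top) in the opossum (orange) and the mouse (blue), with bars for 95% counting intervals. Cdh12 peaks at 2.95 and 2.70 in bins 3 and 4, Cdh18 reaches 2.13 at the bottom of the mouse and is high at both ends in the opossum, and Pcdh15 peaks at 3.21 in the middle of the mouse only.

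Members past the subclass rule but not the depth rule included genes with a peak in the middle. Mouse Pcdh15 reached 2.87 and 3.21 in bins 4 and 5 and 0.83 in bin 6, and the opossum gene stayed between 0.67 and 1.21 in bins 1 to 7. Opossum CDH6 rose from 0.07 in bin 1 to 0.85 in bin 6 and stood at 0.31 in bin 10. Opossum CDH13 was 0.50 in bin 1 and 2.17 in bin 10, with shifts of 0.115, 0.086 and 0.037, and mouse Cdh13 ranged from 0.46 to 0.97. Opossum CDH20 was 2.46 in bin 1 and 0.50 in bin 10, and missed the rule because 1 region lay at -0.048. The clustered genes lay near the mean depth, at 0.001 for PCDHGC5 and -0.008 for Pcdhga1.

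A set of 21 members had at least 100 UMIs in both species. Their depth shifts correlated across these genes at a Spearman rho of 0.49, with 0.18 over all 5836 symbols shared. Genes are not independent replicates and the value is a description. The side of the mean depth was the same in every region of both species for 10 of the 21, where 9.75% of all shared genes were, and opposite in every region for 2, where 3.39% were. Cdh8, Cdh10, Cdh12, Cdh20, Cdh22 and Pcdh15 were shallow-sided in all 7 regions, and Cdh9, Cdh11, Cdh13 and Cdh24 were deep-sided. Cdh6 and Pcdh20 were the genes of opposite side, deep-sided in the opossum and shallow-sided in the mouse. Layers lay at different relative depths in the species. Median depth was 0.48 in opossum IT_B and 0.34 in mouse L4 cells, and 0.71 and 0.55 in opossum and mouse L5PT cells. A side of the mean depth is therefore not a layer, and the part of this in the opposite sides was not tested.

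For the subclasses of one name in both species, and IT_B set beside L4 (Rorb was higher in both), the 21 genes made 25 opossum and 23 mouse pairs past the rule, and 9 pairs were past it in both. These are 36.0% of the opossum pairs and 39.1% of the mouse pairs, where over all 5836 shared genes 12.4% of the opossum pairs and 18.5% of the mouse pairs were shared. By gene, 8 of the 21 had such a pair, where 5.69% of all shared genes did. They were Cdh7, Cdh9 and Cdh13 in Sst cells, Cdh8 and Cdh20 in L5PT cells, Cdh18 in L6CT cells, and Cdh6, Cdh8 and Cdh12 in IT_B and L4 cells. Against cells of the same depth 6 of the 9 stayed at 1.5-fold or more in both species, and the pairs lost were Cdh20 in L5PT cells and Cdh6 and Cdh8 in IT_B and L4 cells (mouse Cdh8 1.48-fold).

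Several members lie next to each other in the genome. In the mouse (GRCm39) Cdh6 (chr15:13028787-13174004), Cdh9 (chr15:16728507-16857226), Cdh10 (chr15:18818713-19016388), Cdh12 (chr15:20449351-21589622) and Cdh18 (chr15:22549108-23474504) follow each other, with 1 annotated protein-coding gene among them, between Cdh12 and Cdh18. Their depth shifts in the mouse were -0.06, 0.09, -0.07, -0.09 and 0.15, and their highest subclasses L4, Sst, L5IT, L4 and L6b. Cdh10 and Cdh12, next to each other, were both past the rule in L4 and L5IT cells and both shallow-sided, whereas Cdh9 and Cdh18 were deep. In the opossum assembly mMonDom1 the genes CDH6, CDH9, CDH12 and CDH18 follow in the same order, with 1, 4 and 0 protein-coding genes between them. The place of CDH10, which was measured in the opossum, was not established in that assembly. Cdh8 (chr8:99751103-100144308) and Cdh11 (chr8:103358726-103512687) are neighbors in the mouse with no protein-coding gene between, and had shifts of -0.09 and 0.04.

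V1 was set against the remaining cells of each section, whatever their tissue. The opossum block had been trimmed close to V1 and the mouse block had not, so the values are given within a species. In the opossum 11 of 23 members were higher in V1, where 46.5% of all genes tested were, and in the mouse 20 of 29, where 49.6% were. CDH22 had the highest opossum ratio, at 0.466 against 0.272 elsewhere (1.71), and CDH9 and CDH10 the lowest (0.60 and 0.61). Mouse Pcdh7 (1.68), Cdh18 (1.66), Cdh6 (1.64) and Cdh12 (1.61) were highest, and Pcdh20 (0.41) and Pcdh19 (0.52) lowest.

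Of 28 genes listed for the pathway (catenins and related armadillo proteins, larger members of the cadherin superfamily, and partners of protocadherins), 17 opossum and 22 mouse genes had at least 100 UMIs, and 7 and 10 of these were past the subclass rule, beside 46.4% of all opossum genes and 33.7% of all mouse genes tested. Jup, the plakoglobin of adhesion junctions, was deep in every mouse region (pooled shift 0.14) and 1.69-fold higher in L6CT cells, and the calsyntenin CLSTN2 was deep in the opossum (0.17) with 2.40-fold in L6CT cells. MAGI1, a scaffold protein, was shallow in the opossum (-0.10). FAT3, a giant cadherin, was 2.65-fold higher in opossum IT_A cells and 2.02-fold in mouse L5PT cells. Ctnnb1, the beta-catenin that links classical cadherins to actin, was 2.86 in opossum V1 and 3.49 in mouse V1, with depth shifts of -0.01 and 0.05.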

How the data were processed

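Per the methods of the study, reads of 1 section per species went through the Stereo-seq Analysis Workflow, with the opossum on a custom genome whose gene ends were extended and the mouse on GRCm39. The authors deposited UMI counts per gene and segmented cell, without normalization, with regions, a cell filter (at least 50 genes and 100 UMIs) and labels transferred in 3 rounds. V1 cells passing the filter were analysed with Python 3.11.15, numpy 2.4.6, scipy 1.17.1 and pandas 2.3.3 (plots: matplotlib 3.10.9). Depth came from the smallest rectangle enclosing a region. Counts were summed over cells with no count model, since each species is 1 sample. Fold intervals are exact conditional binomial at 95%. The measures were tested on simulated data. Doublets were not called. Named genes were, per species, the 8 highest, the 5 shallowest and 5 deepest, those past either rule, and fixed lists. The genes and lists were chosen with earlier results of these data known. Mouse positions are from GENCODE M39, where all 92 identifiers matched. Alternatives were first-round labels, means over cells, other minimums, folds and references, raw UMIs, thinning to 300 UMIs, glutamatergic cells alone, cells of at least 500 UMIs and each region left out.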

Additional observations from a re-analysis of the deposited data

Results flagged for a closer look

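Cdh6 and Pcdh20 lay on opposite sides of the mean depth in the 2 species in every V1 region. Cdh6 had a pooled shift of 0.0474 in the opossum, with 0.082, 0.035 and 0.024 in the 3 regions. In the mouse its pooled shift was -0.0618, with -0.034, -0.077, -0.061 and -0.094 in the 4 regions. Pcdh20 had a pooled shift of 0.0195 in the opossum, with 0.007, 0.015 and 0.040. In the mouse it was -0.0862, with -0.128, -0.091, -0.068 and -0.044. The difference between species was not tested, since each is 1 animal, and 3.39% of all shared genes lay on opposite sides in this way. Median depth was 0.48 in opossum IT_B and 0.34 in mouse L4 cells, so opposite sides need not mean different layers.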

How the results depend on the processing

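Members past the subclass rule numbered 18 for the opossum, 19 for the mouse and 11 for each at a fold of 2. Leaving out each region in turn gave 16 in every opossum case and 16 to 19 for the mouse. The other settings gave 15 to 22 and 16 to 25. Members shallow or deep in every region numbered 4 and 6, and 1 (CDH22) and 2 (Cdh18 and Cdh24) at a difference of 0.1. Leaving out a region gave 6 for the opossum and 6 to 9 for the mouse, with a region fewer to pass, and the remaining settings 3 to 6 and 4 to 7. Single folds turned under 1 for CDH18 in opossum Vip cells (0.80) and Cdh20 in mouse L5PT cells (0.94) against cells of the same depth, a reference added after seeing the data, as was the fitting class label. They did so too for CDH13 in opossum IT_B (0.30) and Pcdh17 in mouse Micro cells (0.00) with first-round labels, and for PCDH15 in opossum Sst cells without region 3, where leaving out each region gave 0.99 to 2.71. The causes were not tested. Summed levels moved by less than the SD over regions. First-round labels gave no value for subclasses under 25 such cells, and 12 opossum and 7 mouse values were not available. No paired analysis was possible because each species has 1 sample. Thinning left out 156 opossum and 130 mouse cells. Folds that rest on 20 to 30 UMIs have wide counting intervals.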
